A study of Rattus norvegicus with 20 samples.

Results

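Mitochondria carry their own ribosome, built from 2 ribosomal RNAs encoded by the mitochondrial genome and from proteins encoded in the nucleus. Those proteins are made in the cytosol and imported. The genes described here are the nuclear genes of these proteins, selected by symbol and biotype, with no measured value in the rule: every protein-coding row of the deposited tacrolimus table whose symbol starts with Mrpl or Mrps followed by a digit. The rule gave 76 genes of 32883 in that table, 45 with large subunit symbols (Mrpl) and 31 with small subunit symbols (Mrps). The same Ensembl identifiers were then taken from the cyclosporine A table, which lists 32545 genes.

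The mitochondrial ribosome translates the few proteins of the mitochondrial genome, all of them membrane subunits of the respiratory chain and of ATP synthase. Kidney tubules, above all the proximal tubule and the thick ascending limb, are rich in mitochondria because they reabsorb salt and solutes against gradients. The small subunit reads the messenger RNA and the large subunit joins amino acids. Symbols do not settle the place of every product: structures put the products of Mrps18a and Mrps30 in the large subunit, and the product of Mrps36 is now known as a part of the oxoglutarate dehydrogenase complex. They are counted by symbol here.

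The kidneys came from 20 wild-type male Wistar rats, 10 to 12 weeks old, each given drug or vehicle for 28 days from an osmotic minipump under the skin. Cyclosporine A (n = 4) was compared with saline (n = 4), and tacrolimus (n = 6) with a mixture of 25% DMSO and 75% PEG500 (n = 6). Both drugs are calcineurin inhibitors used against transplant rejection. The target trough for tacrolimus was 3.5 ng/ml, and the design text gives 3 mg/ml for cyclosporine A, printed here as given. Each library is total RNA of a whole kidney, so fewer cells of a type and less RNA per cell cannot be told apart. Vehicle and deposited table differ along with the drug, so a difference between the drugs cannot be told apart from a difference of vehicle or table.

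Between 30468744 and 34308793 fragments were assigned to genes in the libraries of the cyclosporine A study, and between 31670202 and 39358485 in those of the tacrolimus study. The mitochondrial genome took 59.8% ± 7.97 (SD, n = 4) of them with saline and 84.7% ± 4.68 (SD, n = 4) with cyclosporine A (2-sided exact permutation test, p = 0.0286, the smallest that 70 arrangements allow). It took 11.9% ± 1.13 (SD, n = 6) with DMSO/PEG and 12.4% ± 1.88 (SD, n = 6) with tacrolimus (2-sided exact permutation test, p = 0.606). Fragments of nuclear genes therefore ranged from 2905823 to 17256642 in the cyclosporine A table. FPKM divides the fragments of a gene by its length and by the depth of the library. In the cyclosporine A table they were deposited relative to all fragments, so they were rescaled here so that the median ratio of a gene between libraries is equal, as it already was in the tacrolimus table. All markers of the proximal tubule and the thick ascending limb were detected, but the 6 proximal tubule markers summed to 116 to 329 rescaled FPKM in the 8 kidneys of the cyclosporine A comparison. In the 12 kidneys of the tacrolimus comparison they summed to 2611 to 3037 FPKM. These sums come from tables scaled apart.

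The tacrolimus table's 76 members matched a RefSeq promoter entry (build GRCr8) by symbol for 59 genes, with 61 windows of 300 bases running from 250 before to 50 after the annotated start. Nuclear genes of mitochondrial proteins are known for promoters without a TATA box that bind NRF1, the ETS factor GABP and YY1. The letters CCGGAAG of the ETS site, or their reverse complement CTTCCGG, stood in 20 of the 61 windows (32.8%), in 15.3% of 12207 windows of other genes tested in the tacrolimus table and in 8.75% of all 33469 windows. AAGATGGC of the YY1 site, or GCCATCTT on the other strand, stood in 15 of 61 (24.6%), against 4.78% and 3.17%. The NRF1 site, searched as GCGCA and GCGC with any single base between them, or the reverse complement, stood in 8 of 61 (13.1%), against 8.57% and 4.25%. TATAAA or TTTATA stood in 8 of 61 (13.1%), against 7.4% and 14.2%. Matches that began within 50 bases of the start stood in 14 windows for ETS, 13 for YY1, 4 for NRF1 and 0 for TATAAA or TTTATA. Windows of other genes were not counted this way. None of the 4 motifs contains another, and a window could count for several. At least one of the first 3 stood in 33 of the 61 windows (54.1%) and in 25.3% of the windows of other tested genes. A match is a string of letters and does not show that a factor binds there. The members with the YY1 letters had a median level of 27.3 FPKM in the tacrolimus table (15 genes) and those without 42.0 FPKM (44 genes). For the ETS letters the medians were 42.6 FPKM (20 genes) and 36.8 FPKM (39 genes). They were 33.2 FPKM (8 genes) and 40.0 FPKM (51 genes) for NRF1, and 32.7 FPKM (8 genes) and 40.5 FPKM (51 genes) for TATAAA or TTTATA. These differences in level were not tested.

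Stretches from 120 bases before to 10 after the start are shown for 5 members, with GRCr8 positions: the most abundant of each subunit (Mrpl33, Mrps6), the member with the smallest adjusted p with cyclosporine A (Mrpl10), a member with both an ETS and an NRF1 match near its start (Mrps18b), and the least abundant tested member of the tacrolimus table (Mrpl53). Capitals mark the ETS, NRF1 or YY1 letters on either strand.
Mrpl33 (chr6:30553978-30554107, minus strand): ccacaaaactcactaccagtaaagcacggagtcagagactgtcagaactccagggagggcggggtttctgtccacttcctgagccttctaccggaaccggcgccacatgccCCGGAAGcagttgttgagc
Mrps6 (chr11:44778547-44778676, plus strand): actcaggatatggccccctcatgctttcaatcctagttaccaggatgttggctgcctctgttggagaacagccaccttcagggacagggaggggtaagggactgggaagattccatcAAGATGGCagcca
Mrpl10 (chr10:82522350-82522479, plus strand): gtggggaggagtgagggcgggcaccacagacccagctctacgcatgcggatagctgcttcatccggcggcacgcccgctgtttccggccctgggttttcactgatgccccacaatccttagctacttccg
Mrps18b (chr20:2842886-2843015, plus strand): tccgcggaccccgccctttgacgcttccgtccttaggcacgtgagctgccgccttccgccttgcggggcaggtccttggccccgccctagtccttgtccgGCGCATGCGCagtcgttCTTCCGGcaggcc
Mrpl53 (chr4:117172923-117173052, plus strand): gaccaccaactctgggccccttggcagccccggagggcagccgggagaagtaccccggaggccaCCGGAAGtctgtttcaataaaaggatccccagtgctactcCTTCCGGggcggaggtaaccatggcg
The ETS match of Mrpl33 began 9 bases before the start and the YY1 match of Mrps6 began 3 before it. In Mrps18b the NRF1 match began 20 bases before the start and the ETS match 3 before it. Mrpl53 had 2 ETS matches, beginning 56 and 16 bases before the start. No match to these letters lies in the Mrpl10 stretch.

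The genes were not equally abundant. In the tacrolimus table the 74 members that passed the filter on low values had mean levels from 3.34 FPKM (Mrpl53) to 168 FPKM (Mrpl33), a 50.5-fold range, with a median of 37.8 FPKM. The large and small subunit medians were 38.3 FPKM (45 genes) and 37.2 FPKM (29 genes). Mrpl33, a short protein of the large subunit with a bacterial homologue, stood apart: its 12 libraries ran from 148 to 198 FPKM, while the next members, Mrps6, Mrpl34 and Mrps25, had means of 99.8, 99.5 and 97.9 FPKM. Those 3 do not differ beyond the spread between libraries, since the SDs of their groups ran from 4.97 to 14.7 FPKM. At the bottom of the large subunit were Mrpl53, Mrpl1 (3.83 FPKM) and Mrpl36 (5.04 FPKM), and at the bottom of the small subunit Mrps2 (9.74 FPKM) and Mrps27 (11.7 FPKM). The range was narrower in the small subunit, 10.2-fold against 50.5-fold.

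**Figure D1:**
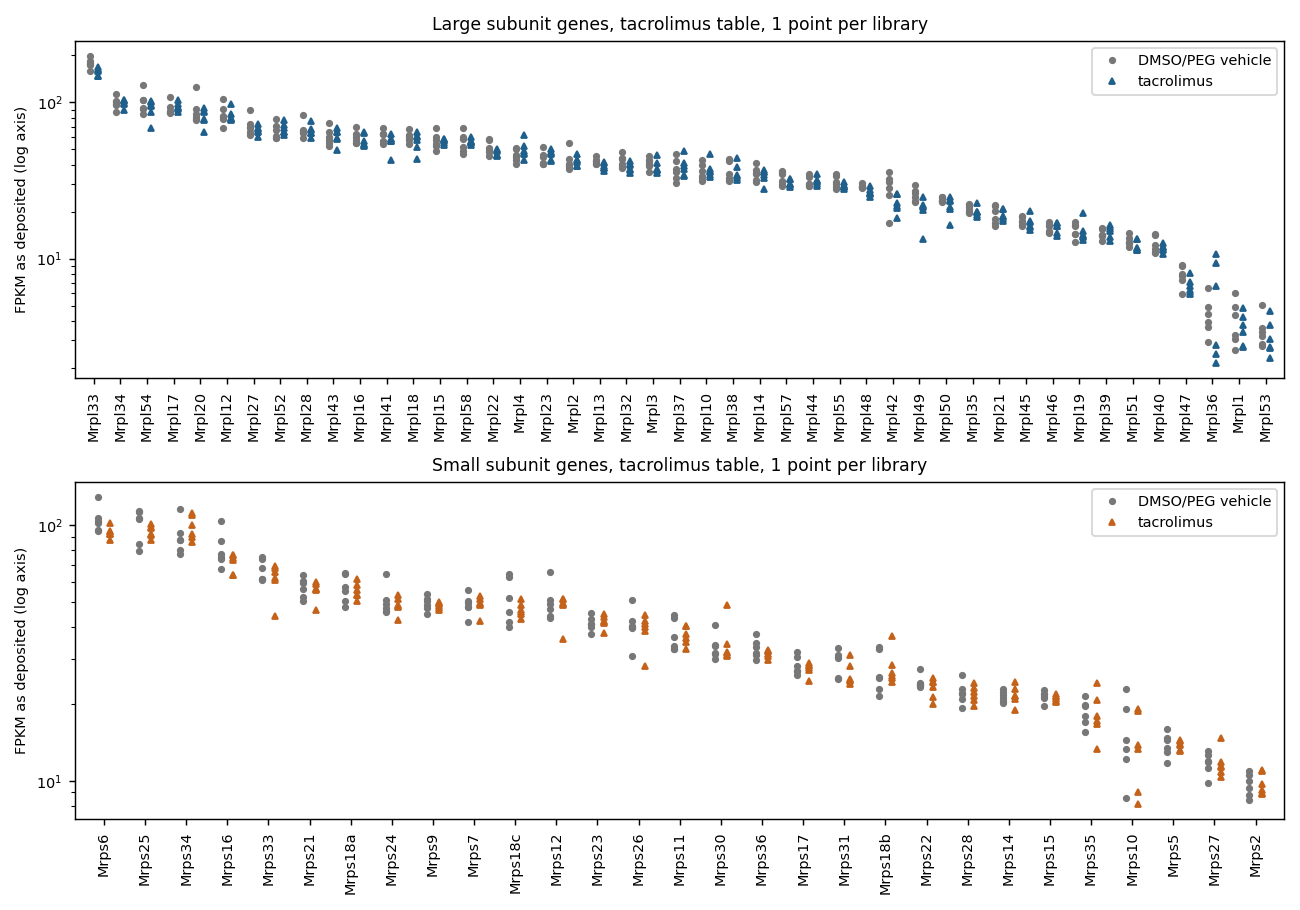
Level of each tested member in the tacrolimus table, in FPKM on a log axis, ordered by mean level within the large subunit (top) and the small subunit (bottom). Each point is a library, grey circles for DMSO/PEG vehicle and coloured triangles for tacrolimus, and the points of both groups overlap for every gene shown.

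The order of levels was alike in the cyclosporine A table, where rescaled FPKM means ran from 1.56 (Mrpl1) to 105 (Mrpl33) with a median of 19.3 over 72 tested members. Spearman's rho between the mean levels of the 2 tables was 0.892 over these 72 genes. It was 0.951 over the 54 genes for which both tables used the same gene length. For 17 members the values of the cyclosporine A table come out as whole fragments only at a length below that listed, such as 735 of 2219 bases for Mrps18b, and the length in use was taken for the rescaled FPKM. Mrpl36 (mean 14.4 fragments) and Mrpl53 (mean 7.75 fragments) were too low to test there. Of 2 Mrps21l rows, copies of the Mrps21 gene, 1 had 0 fragments in all 20 libraries, and the other averaged 2.38 and 1.75 fragments in the 2 tables. A count of 0 in 1 library, taken alone, allows up to 3 fragments, and 0 in every library allows fewer per library. Reads of such copies can be assigned to either gene, so the values of Mrps21 are uncertain to that extent.

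With cyclosporine A no member passed the test once the libraries were rescaled. In limma's test 0 of 72 members reached an adjusted p under 0.05, where 0.62% of all 13380 genes did, and 0 did with voom on the recovered fragments. At an unadjusted p under 0.05 there were 3 members, all lower with the drug, and 2 with voom. With each library left out in turn there were from 1 (without cyclosporine A replicate 1) to 8 (without cyclosporine A replicate 2), with 7 and 5 without its replicates 4 and 3 and 2 without saline replicate 1. Of all genes 83 were called, and with libraries left out 10, 86, 22 and 139 without cyclosporine A replicates 1 to 4 and 16, 31, 3 and 1 without saline replicates 1 to 4. Over all genes 16.2% passed that level, 8.83% lower with the drug. The median log2 fold change was -0.01 over the 72 members, beside 0.00 over all genes. It was -0.01 for the 43 large subunit members and -0.03 for the 29 small subunit members, with 32 members above 0 and 40 below. Scaled to the total of nuclear fragments, which puts the median of all genes at 0.07, 19 of those 40 lay above 0. The median of the members was 0.03 without cyclosporine A replicate 4, so the data give it no direction. The 95% interval lay within 1.5-fold in both directions for 65 of the 72 members and within 2-fold for 71, so changes larger than that are outside the intervals of those genes.

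**Figure D2:**
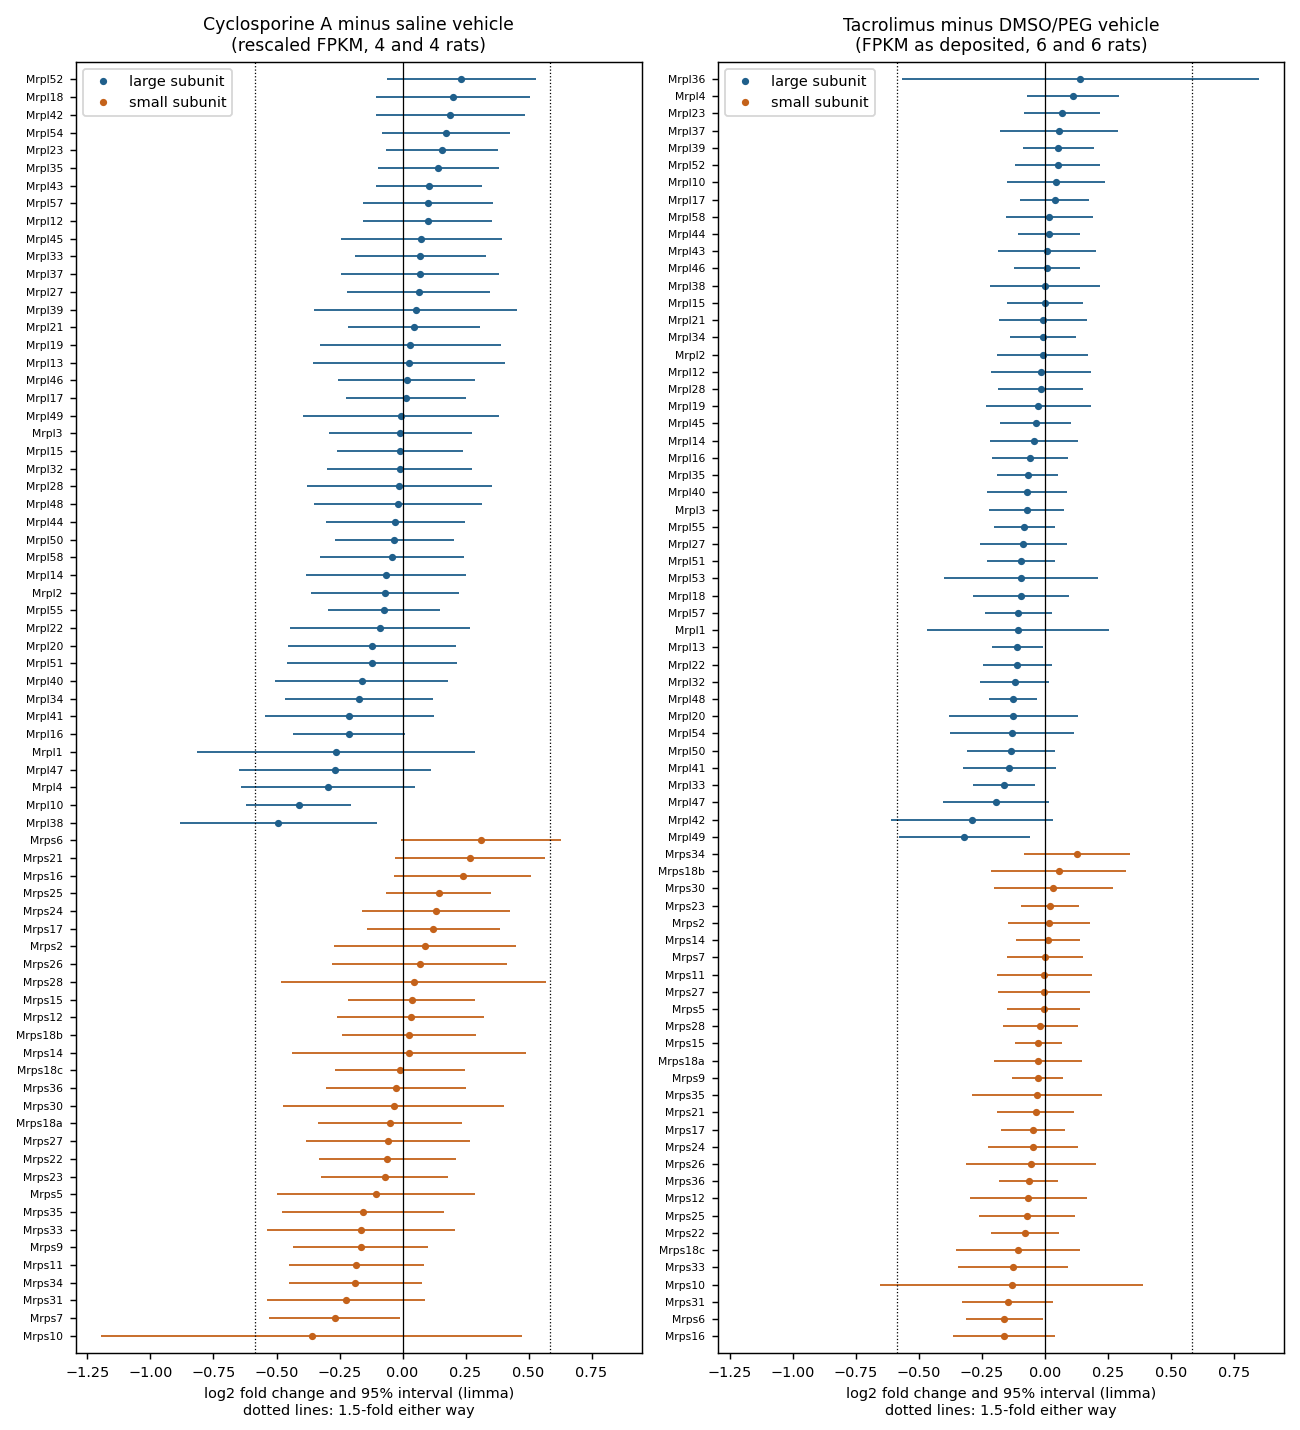
Log2 fold change of each tested member with its 95% interval from limma, for cyclosporine A (left, 4 and 4 rats) and tacrolimus (right, 6 and 6 rats), large subunit in blue and small subunit in orange. Intervals lie within the dotted 1.5-fold lines for 65 of 72 members on the left and 71 of 74 on the right, and no member passed the adjusted test.

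Mrpl10 was the member nearest to the threshold. Its product anchors the stalk of the large subunit, which recruits the translation factors. The gene lies at chr10:84976377-84984780 (plus strand, rn6 as named in the submitters' processing notes, start and end from the deposited table). Rescaled FPKM were 17.3, 17.3, 16.5 and 17.0 in the saline libraries and 13.0, 11.96, 13.6 and 11.6 in the cyclosporine A libraries. All 4 treated libraries lay below all 4 controls, and Mrpl10 was the single tested member whose groups did not overlap, where 6.03% of all genes had such groups in that direction. The log2 fold change was -0.41 ± 0.09 (SE, limma adjusted p = 0.079). Its adjusted p ran from 0.0806 to 0.207 over the alternatives other than FPKM as deposited. Mrpl10 is also 1 of the 17 members counted over a shorter length, 1239 of 1741 bases. With tacrolimus it ran from 31.6 through a median of 35.1 to 42.8 FPKM in vehicle and from 33.5 through 36.2 to 46.5 FPKM in treated libraries, and the groups overlapped.

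Mrpl38 and Mrps7 were the other members at an unadjusted p under 0.05. Mrpl38, a protein of the large subunit, measured 11.7, 10.9, 10.5 and 9.64 rescaled FPKM with saline and 6.06, 8.27, 10.3 and 5.41 with cyclosporine A. Replicate 3 of the treated group lay among the controls. Its log2 fold change was -0.49 ± 0.18 (SE, limma adjusted p = 0.205). Mrps7, the homologue of the bacterial S7 protein of the small subunit head, measured 23.3, 19.0, 21.3 and 22.4 with saline and 16.5, 20.7, 18.4 and 15.4 with cyclosporine A, again with overlap (log2 fold change -0.27 ± 0.12, SE, limma adjusted p = 0.293). Mrps7 overlaps Gga3 on the other strand, and the strand setting of the counting is not given in the sources used here. Of the 76 members 10 overlap a protein-coding gene on the other strand, and for these the reads of the 2 genes may not be told apart.

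The largest positive values belonged to small subunit genes, and none passed the test. Mrps6, a homologue of bacterial S6, measured 43.3, 37.5, 54.0 and 53.3 rescaled FPKM with saline and 60.2, 49.8, 55.9 and 67.1 with cyclosporine A. The lowest treated library lay below 2 of the controls. Its log2 fold change was 0.31 ± 0.14 (SE, limma adjusted p = 0.321). Mrps21 (0.27 ± 0.13, SE) and Mrps16 (0.24 ± 0.12, SE), whose human counterpart is a mitochondrial disease gene, followed. The Mrps16 value was 0.16 without cyclosporine A replicate 1. Mrps10 had the widest interval of the tested members, -1.20 to 0.48 on the log2 scale. Its 4 cyclosporine A libraries ran from 1.73 to 9.35 rescaled FPKM and its 4 saline libraries from 3.74 to 7.63. With each library left out in turn, its log2 fold change ran from -0.71 (without cyclosporine A replicate 4) to -0.07 (without cyclosporine A replicate 1).

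The other members with known roles did not pass the test with cyclosporine A, and their values moved when single libraries were left out. The log2 fold change was 0.10 ± 0.11 (SE) for Mrpl12, the stalk protein that also binds the mitochondrial RNA polymerase, and it was 0.02 without cyclosporine A replicate 3 and 0.18 without replicate 4. It was -0.01 ± 0.13 (SE) for Mrpl3, next to the peptidyl transferase centre, and 0.03 ± 0.13 (SE) for Mrps12, the homologue of bacterial S12 at the decoding centre. Mrpl45, a protein at the exit of the nascent chain tunnel, had 0.07 ± 0.14 (SE), with values from 0.02 (without saline replicate 1) to 0.18 (without cyclosporine A replicate 4) over the libraries left out in turn. Mrps34, needed for a stable small subunit, had -0.19 ± 0.12 (SE), and -0.11 without cyclosporine A replicate 4. The 3 Mrps18 paralogues had -0.05 ± 0.13 (Mrps18a), 0.03 ± 0.12 (Mrps18b) and -0.01 ± 0.12 (Mrps18c; all SE).

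**Figure D3:**
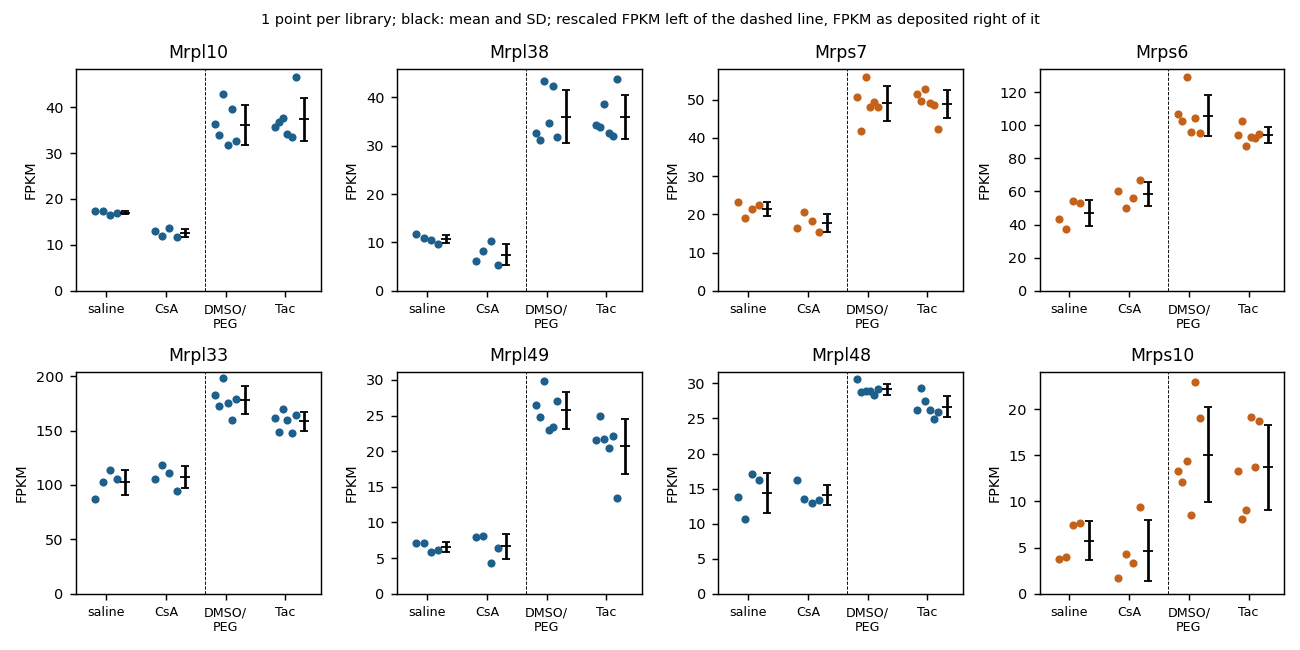
FPKM per library of 8 members in the 4 groups (CsA, cyclosporine A; Tac, tacrolimus), rescaled FPKM left of the dashed line and FPKM as deposited right of it, with mean and SD in black. Mrpl10 is lower in all 4 cyclosporine A libraries than in all 4 saline libraries, and the groups of the other panels overlap within each table.

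The deposited FPKM of the same libraries gave another count. Relative to all fragments, mitochondrial ones included, 72 of 72 members were lower with cyclosporine A at an adjusted p under 0.05 in limma, and 81.2% of all 13380 genes were called lower. The median log2 fold change was -1.24 over the members and -0.90 over all genes. The groups of 71 members did not overlap (68% of all genes were non-overlapping and lower). Mrpl33 fell from 165 ± 23.7 to 71.9 ± 24.7 FPKM (SD, n = 4 each), and Mrpl10 from 27.8 ± 5.57 to 8.3 ± 2.38 FPKM (SD, n = 4 each). Members ranged from -1.67 (Mrpl38) to -0.92 (Mrps2). On this scale the share of the mitochondrial genome moves with the groups, and the direction depends on the scale for the 32 members that lie above 0 after rescaling.

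**Figure D4:**
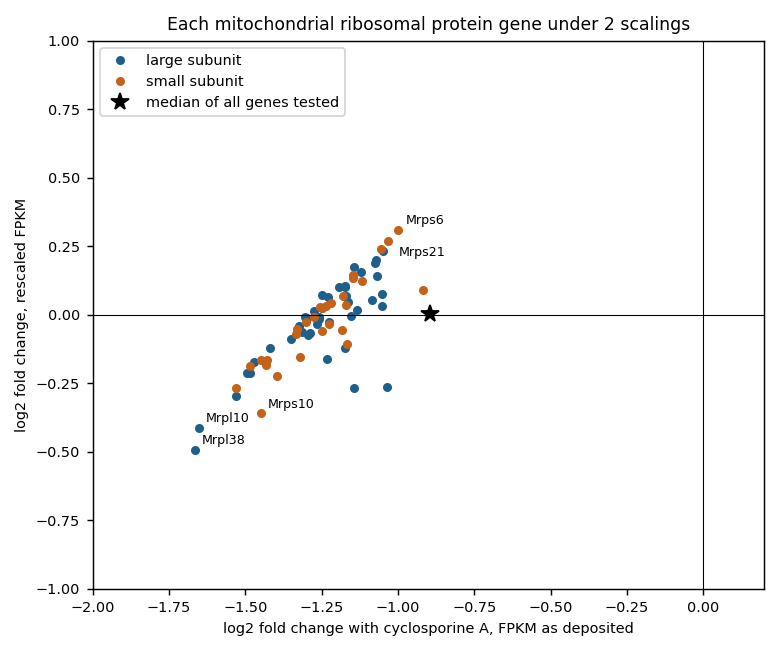
Log2 fold change with cyclosporine A of each of the 72 tested members on deposited FPKM (horizontal) and on rescaled FPKM (vertical), with the median of all tested genes as a star. On the deposited scale every member lies left of 0, with a median of -1.24, and after rescaling they spread around 0, with a median of -0.01.

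In single libraries, the large subunit median was 16.0, 16.8, 18.3 and 17.0 rescaled FPKM with saline and 18.3, 16.1, 16.6 and 14.5 with cyclosporine A. The small subunit median was 18.9, 19.0, 21.3 and 21.9 with saline and 17.8, 20.6, 20.7 and 16.0 with cyclosporine A. Groups overlapped for both subunits. The lowest library for both, cyclosporine A replicate 4, also had the highest mitochondrial share (90.8%) and the fewest nuclear fragments (2905823). The ratio of the large to the small subunit median was 0.842 ± 0.0462 (SD, n = 4) with saline and 0.88 ± 0.113 (SD, n = 4) with cyclosporine A. All 4 tested urothelium markers had positive fold changes with cyclosporine A and 1 was called. The 6 listed summed to 1.61 to 4.21 rescaled FPKM with saline and to 7.19 to 17.6 with the drug. These are low values, as 4 of the 6 had a mean under 1 FPKM. So had 3 of the 5 distal convoluted tubule, 2 of the 5 podocyte and 1 of the 6 proximal tubule markers below. The 4 thick ascending limb markers summed to 308 to 558 and to 147 to 244 rescaled FPKM, with 2 called and 1 of the 4 positive. The 5 distal convoluted tubule markers summed to 52.8 to 77.0 and to 24.7 to 33.9 rescaled FPKM, also without overlap, but 2 of the 4 tested were positive and 1 was called. Of the 6 proximal tubule markers 1 was called and 3 had an unadjusted p under 0.05, with sums of 176 to 278 and 116 to 329 rescaled FPKM and 1 of 6 positive. All 5 collecting duct markers were positive with 0 called (151 to 242 and 138 to 458 rescaled FPKM), and 4 of 5 podocyte markers were positive with 2 at an unadjusted p under 0.05 (2.88 to 5.12 and 4.21 to 11.8 rescaled FPKM). The part of these cell types in the members' values was not tested.

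**Figure D5:**
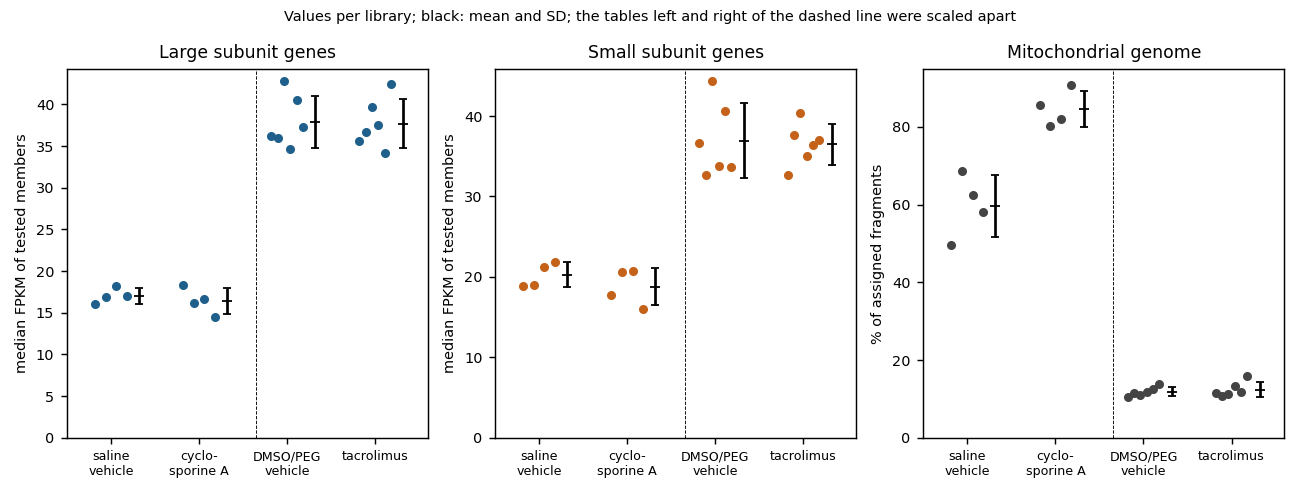
Median FPKM of the tested large subunit members (left) and small subunit members (middle), and share of fragments from the mitochondrial genome (right), per library, with mean and SD in black. Subunit medians of drug and vehicle overlap within each table, while the mitochondrial share is 80.2% to 90.8% with cyclosporine A and 49.7% to 68.6% with saline.

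With tacrolimus, too, no member passed the test. In limma 0 of 74 members reached an adjusted p under 0.05, where 0.304% of all 15479 genes did, and voom on the recovered fragments gave 0. At an unadjusted p under 0.05 there were 5 members, all lower with the drug, and 4 with voom. With each library left out in turn there were 3 (without tacrolimus replicates 1 or 5) to 8 (without vehicle replicate 2). Over all genes 8.59% passed that level, 4.88% lower with the drug. No member had groups without overlap (0.976% of all genes). The median log2 fold change was -0.04 over the members, beside 0.00 over all genes. It was -0.06 for the 45 large subunit members and -0.03 for the 29 small subunit members, with 19 members above 0 and 55 below. The 95% interval lay within 1.5-fold for 71 of 74 members and within 2-fold for all 74.

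The size of the small downward shift depended on single control libraries. In DMSO/PEG vehicle replicate 3, 64 of 74 members lay above their group mean, by a median of 0.18 on the log2 scale. In replicate 2 of the same group 10 of 74 did, with a median of -0.13. Without replicate 3 the median log2 fold change of the members was -0.0042, with 39 of 74 below 0. Without replicate 2 it was -0.0653 and without replicate 4 it was -0.0594, and it stayed below 0 with each of the 12 libraries left out in turn. The subunit medians show the same library: 42.8 FPKM (large) and 44.4 FPKM (small) in vehicle replicate 3, against 34.6 to 40.6 and 32.7 to 40.7 FPKM in the other vehicle libraries. Treated libraries ran from 34.2 to 42.4 FPKM for the large and from 32.7 to 40.4 FPKM for the small subunit. The ratio of the subunit medians had a mean of 1.03 and an SD of 0.0602 over the 6 vehicle libraries, and 1.03 and 0.0804 over the 6 treated ones. The 6 adipocyte markers summed to 86.9 to 279 FPKM with vehicle and to 49.7 to 154 FPKM with tacrolimus. Of these 6, 0 were positive, 1 was called and 4 had an unadjusted p under 0.05. The 5 distal convoluted tubule markers summed to 276 to 352 FPKM with vehicle and to 47.8 to 75.9 FPKM with tacrolimus, without overlap. All 4 of the distal convoluted tubule markers tested were called lower. The part of these cell types in the members' values was not tested.

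Mrpl33, the most abundant member, had the smallest adjusted p. Its vehicle libraries ran from 159 through a median of 177 to 198 FPKM and its tacrolimus libraries from 148 through 161 to 170 FPKM, with overlap (log2 fold change -0.16 ± 0.06, SE, limma adjusted p = 0.406). Mrpl48, a large subunit protein, ran from 28.4 through 28.9 to 30.6 FPKM in vehicle and from 24.9 through 26.2 to 29.3 FPKM in treated libraries. A single treated library reached the range of the controls (log2 fold change -0.12 ± 0.04, SE, limma adjusted p = 0.409). Mrpl49 had the most negative value, -0.32 ± 0.12 (SE, limma adjusted p = 0.436). It ran from 23.0 through 25.7 to 29.8 FPKM in vehicle and from 13.4 through 21.6 to 25.0 FPKM in treated libraries. Without tacrolimus replicate 6, the library at 13.4 FPKM, the log2 fold change was -0.21. Mrpl49 overlaps Syvn1 on the other strand.

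Mrpl13 and Mrps6 were the other members at an unadjusted p under 0.05. Mrpl13, the homologue of bacterial L13, had a log2 fold change of -0.11 ± 0.05 (SE), and it overlaps Mtbp on the other strand. Mrps6 had -0.16 ± 0.07 (SE), with vehicle libraries from 94.98 through 103 to 129 FPKM and treated libraries from 87.3 through 93.4 to 103 FPKM. The highest Mrps6 value was again vehicle replicate 3. The next most negative values were -0.29 ± 0.15 (SE) for Mrpl42 and -0.19 ± 0.10 (SE) for Mrpl47. The most positive were 0.14 ± 0.33 (SE) for Mrpl36, which had a mean of 53.3 fragments, 0.13 ± 0.10 (SE) for Mrps34 and 0.11 ± 0.08 (SE) for Mrpl4. The Mrps34 value was 0.20 without DMSO/PEG vehicle replicate 3, and the Mrpl4 value was 0.05 without tacrolimus replicate 6. Among the other members with known roles, Mrpl12 had -0.02 ± 0.09 (SE), Mrpl3 -0.07 ± 0.07 (SE; -0.04 without vehicle replicate 3 and -0.12 without tacrolimus replicate 6), Mrps12 -0.07 ± 0.11 (SE) and Mrps7 0.00 ± 0.07 (SE).

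The change with cyclosporine A was then set against the change with tacrolimus, each against its own vehicle. The test of the difference, with limma standard errors and Satterthwaite degrees of freedom, called 0 of 72 members, where 1.68% of 13319 genes were called. With voom it also called 0. At an unadjusted p under 0.05 there were 6 members, and 6 with voom, and 16% of all genes passed that level. With each library left out in turn there were 3 (without cyclosporine A replicate 1) to 8 members at that level. Between 27 (without saline replicate 4) and 274 (without cyclosporine A replicate 2) of all genes were then called, against 224, with 48, 75, 78 and 93 without saline replicates 1, 2 and 3 and cyclosporine A replicate 1. The difference, cyclosporine A minus tacrolimus, was -0.46 ± 0.13 (SE, limma adjusted p = 0.0694) for Mrpl10. Without DMSO/PEG vehicle replicate 3 it was the 1 member called (limma adjusted p = 0.0443), and over the alternatives other than FPKM as deposited its adjusted p ran from there to 0.164. The difference was 0.47 ± 0.16 (SE, limma adjusted p = 0.154) for Mrps6, with changes of 0.31 and -0.16 under the 2 drugs. The other 4 were Mrpl42 (0.48), Mrps16 (0.40), Mrpl38 (-0.49) and Mrpl4 (-0.41). The 95% interval of the difference lay within 1.5-fold for 58 of 72 members and within 2-fold for 71.

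Other genes of mitochondrial translation were counted in 5 lists by function. Of 5 ribosomal proteins with other symbols, such as Aurkaip1 and Dap3, 0 were called with either drug. The same held for 15 translation factors, and for 28 ribosome assembly genes with cyclosporine A and 30 with tacrolimus. It also held for 22 and 23 mitochondrial aminoacyl-tRNA synthetases and amidotransferase subunits, and for 15 genes of mitochondrial transcription and its nuclear regulators. The median log2 fold changes of these lists lay between -0.13 and 0.08 with cyclosporine A and between -0.01 and 0.03 with tacrolimus. On deposited FPKM, by contrast, 27 of the 28 assembly genes and every tested gene of the other 4 lists were called lower with cyclosporine A, where 81.2% of all genes were.

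At an unadjusted p under 0.05 with cyclosporine A there were 3 higher and 6 lower of the 85 tested genes of these 5 lists (10.6%), where 16.2% of all genes passed that level. With tacrolimus there were 3 higher and 2 lower of 88 (5.68%), where 8.59% of all genes did. The synthetase Iars2 had a log2 fold change of -0.52 ± 0.12 (SE, limma adjusted p = 0.0789) and the synthetase Nars2 -0.53 ± 0.15 (SE, limma adjusted p = 0.124). Gfm1, the mitochondrial elongation factor G, had -0.50 ± 0.15 (SE, limma adjusted p = 0.139). Spg7, a subunit of the protease that matures Mrpl32, had -0.40 ± 0.10 (SE, limma adjusted p = 0.0976). The other 2 with negative values were Rpusd3, a member of the pseudouridine synthase family (-0.55 ± 0.21, SE), and the synthetase Sars2 (-0.33 ± 0.15, SE). The 3 with positive values were Mettl17, a mitochondrial ribosome assembly factor (0.48 ± 0.17, SE, limma adjusted p = 0.196), Mterf1, a mitochondrial transcription termination factor (0.44 ± 0.14, SE, limma adjusted p = 0.176), and Aurkaip1 (0.27 ± 0.11, SE, limma adjusted p = 0.289). With tacrolimus, Ppargc1a, the coactivator PGC-1alpha, had -0.33 ± 0.12 (SE, limma adjusted p = 0.411) and Guf1, a translation factor, -0.19 ± 0.08 (SE, limma adjusted p = 0.469). The 3 positive values, all of assembly genes, were those of Rpusd3 (0.34 ± 0.09, SE, limma adjusted p = 0.166), Noa1 (0.13 ± 0.05, SE) and LOC103690007 (0.85 ± 0.36, SE).

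The ribosomal proteins of the cytosol gave other values with cyclosporine A. Of 78 tested, 3 rose on rescaled FPKM at an adjusted p under 0.05 in limma, Rpl12, Rps28 and Rpl37, and 0 fell, while on deposited FPKM 71 fell and 0 rose. Without saline replicate 4 only 1 of all genes was called on rescaled FPKM, so these 3 calls do not all hold with each library left out. Of all 13380 genes 45 rose and 38 fell on rescaled FPKM, and 81.2% were called lower on deposited FPKM. The median log2 fold change of the cytosolic ribosomal proteins was 0.29 on rescaled FPKM, with 69 of 78 above 0, and -0.997 on deposited FPKM. At an unadjusted p under 0.05 on rescaled FPKM, 40 of the 78 were higher and 0 lower. Of all 13380 genes 986 were higher and 1181 lower at that level. With tacrolimus 0 of 79 were called, with a median of -0.01. Reads of cytosolic ribosomal proteins can be shared with pseudogene copies, so single genes of that list are uncertain.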

How the data were processed

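Whole-kidney RNA was sequenced from 20 rats, 1 library per animal, with an NEBNext kit per the labels' protocols. The aligner HISAT2 and the build rn6 are named in the submitters' processing notes. The counting program, strand setting and annotation are not given in the sources used here. The authors deposited FPKM values, 1 column per library. Because no count table was used, the fragments behind each FPKM were recovered from gene length and depth: 100% of the tacrolimus values above 0 and 74.58% of the cyclosporine A values were whole within 0.01 at the listed length, and 4441 genes of the latter became whole at a shorter length. The cyclosporine A table was rescaled by median-of-ratios size factors.

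Genes were tested that reached 10 fragments at the median depth in a number of libraries equal to the smaller group, with 15 fragments over all libraries. Each drug was compared with its own vehicle by limma 3.58.1 (R 4.3.3) on log2(FPKM + 1), with a mean-variance trend in its empirical Bayes step, and p-values were adjusted by Benjamini-Hochberg over all tested genes. Fold changes are on that scale, which understates changes of low genes. The fit was also run on simulated counts with the same spread between replicates for every gene. That setting differs from these libraries, and no result here rests on it. Intervals are at the 95% level. The difference between drugs used both standard errors with Satterthwaite degrees of freedom. The gene family and the lists were chosen with earlier results of these data known, although the rule for members uses symbols and biotypes and no measured value. Named members were the 3 most positive and 3 most negative of each comparison, the 2 highest and 2 lowest of each subunit, the untested ones and 18 with known roles. Mrpl48, Mrpl33 with cyclosporine A, the genes named from other lists and the promoters shown were picked after their values were seen. Replicate libraries differed by more than counting noise (chi-square per degree of freedom 16.7 to 184), so none was counted as a copy. Alternatives were the deposited FPKM, a pseudocount of 0.1, no filter, the nuclear total as the scale, voom, a replicate block, and leaving out each library.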

Additional observations from a re-analysis of the deposited data

Results flagged for a closer look

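Among 148 combinations of a group and a measure (named members, subunit medians, mitochondrial share), 13 had a highest or lowest library whose gap to the nearest other exceeded Dixon's 95% critical value. Chance flags about 1 in 20 such groups, and the members are not independent of each other.

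In the tacrolimus group the library that stood apart was replicate 6 for 6 members. It was highest for Mrpl10 (46.5 FPKM, others 33.5 to 37.7), Mrpl12 (98.1 FPKM, others 77.8 to 84.3), Mrps18b (37.0 FPKM, others 24.3 to 28.3) and Mrps27 (14.7 FPKM, others 10.4 to 11.8). It was lowest for Mrps12 (36.0 FPKM, others 48.8 to 51.4) and Mrps21 (46.7 FPKM, others 55.8 to 60.0). The same library had the highest mitochondrial share of its group (15.9%) and the fewest detected nuclear genes (17853), and their part in these values was not tested.

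In the DMSO/PEG vehicle group, replicate 3 was highest for Mrps12 (65.8 FPKM, others 43.5 to 50.8) and Mrps6 (129 FPKM, others 94.98 to 107). Replicate 5 was highest for Mrpl53 (5.02 FPKM, others 2.78 to 3.595) and replicate 6 for Mrps22 (27.3 FPKM, others 23.4 to 24.1).

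In the cyclosporine A table, replicate 4 of the drug group was highest for Mrpl3 (19.0 rescaled FPKM, others 12.9 to 13.9). Saline replicate 2 was lowest for Mrpl44 (7.84 rescaled FPKM, others 9.63 to 9.80) and highest for the Mrps21l copy with any fragments (0.813 rescaled FPKM, others 0 to 0.0715).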

How the results depend on the processing

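With the replicate block 0 members were called in either drug or in the difference, and 13 genes in all for cyclosporine A (83 without it). Correlations between same-numbered libraries ran from -0.155 to 0.218 for cyclosporine A and from -0.151 to 0.182 for tacrolimus. For each drug, 2 treated libraries were closest to their own number. These correlations are weak and mixed in sign, so they neither show nor exclude that the numbers pair the samples. On deposited FPKM 72 members were called for cyclosporine A and 72 for the difference, and the median for cyclosporine A was -1.24. That scale differs by construction, being relative to fragments that include the mitochondrial genome. Calls were 0 under the other settings, with and without the filter, at a pseudocount of 0.1, scaled to the nuclear total and with voom. Leaving out single libraries gave 0 calls for each drug and 0 to 1 for the difference, the latter without DMSO/PEG vehicle replicate 3, the cause of which was not tested.

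Values follow for the named members only. On deposited FPKM all 32 positive log2 fold changes of members with cyclosporine A, and all 41 positive differences, became negative. Named members among the former were Mrps6 -0.9995, Mrps21 -1.03, Mrps16 -1.06, Mrpl33 -1.25, Mrpl12 -1.19, Mrps12 -1.24, Mrpl13 -1.25, Mrpl37 -1.17, Mrps18b -1.26, Mrps14 -1.25, Mrpl45 -1.05 and Mrps2 -0.919. Named members among the latter were Mrps6 -0.839, Mrps16 -0.894 and Mrpl42 -0.788. Scaled to the nuclear total, where the median of all genes is 0.07, 19 negative values with cyclosporine A, 3 with tacrolimus and 14 differences became positive, with cyclosporine A among them Mrps18a 0.0391, Mrps18c 0.0818, Mrpl3 0.082, Mrpl44 0.0607, Mrps22 0.0251 and Mrps27 0.0252. With voom 4 did with cyclosporine A, among them Mrps18c 0.0231.

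Leaving out 1 library at a time changed the sign of 4 to 14 of 72 members with cyclosporine A, of 3 to 16 of 74 with tacrolimus and of 1 to 16 of 72 differences. For named members with cyclosporine A the ranges were Mrpl13 -0.108 to 0.131, Mrpl3 -0.128 to 0.0437, Mrpl33 -0.0069 to 0.131, Mrpl37 -0.0299 to 0.17, Mrpl44 -0.0986 to 0.0531, Mrps12 -0.0451 to 0.125, Mrps14 -0.133 to 0.251, Mrps18a -0.133 to 0.0282, Mrps18b -0.0738 to 0.101, Mrps18c -0.0762 to 0.0682 and Mrps27 -0.151 to 0.0151. With tacrolimus they were Mrpl10 -0.0183 to 0.094, Mrpl12 -0.0709 to 0.0488, Mrpl36 -0.061 to 0.317, Mrpl37 -0.0098 to 0.118, Mrpl44 -0.0139 to 0.0473, Mrps12 -0.102 to 0.015, Mrps14 -0.0191 to 0.0497, Mrps18a -0.0751 to 0.0135, Mrps18b -0.0264 to 0.12, Mrps2 -0.0192 to 0.0496, Mrps27 -0.0651 to 0.0272 and Mrps7 -0.0426 to 0.0419. Depth limits the cyclosporine A table, where mean fragments of the tested members had a median of 687, against 1493 in the tacrolimus table. The lowest mean of a tested member was 61.5 fragments there (Mrpl1, the least abundant) and 43.2 fragments in the tacrolimus table.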

Other observations

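A row that the cyclosporine A table names Mrpl30 carries another symbol in the tacrolimus table and so is not among the members. Its fragments per library ran from 124 to 324 with saline, from 3 to 223 with cyclosporine A, from 8 to 577 with DMSO/PEG and from 20 to 659 with tacrolimus. In rescaled FPKM the 4 cyclosporine A libraries had 10.4, 0.0979, 0.189 and 4.73. No comparison was made. Second identifiers that the cyclosporine A table names Mrpl36 and Mrpl53 had 0 fragments in its 8 libraries, and a pseudogene row named Mrps36 had at most 2.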
